A study of Homo sapiens with 6 samples.

Results

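Complex splice clusters are groups of overlapping introns in which 10 or more introns are connected through shared splice sites. They were taken from a table of spliced-read counts made with LeafCutter, a program that joins introns sharing a donor or an acceptor into clusters and counts the reads spanning each. A cluster was a member if it held at least 10 deposited introns and at least 20 counts in each of the 6 libraries. Of 39496 deposited clusters, 1928 (4.88%) met this rule, holding 27308 of 153462 introns (17.8%) and 15.3% of all intron counts. The rule used no difference between the groups. Another 12 clusters had 10 or more introns but fell below 20 counts in a library, with a lowest library count of 0 to 19, while the shallowest member had 21.

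The libraries came from U2OS cells, a human osteosarcoma line, in which doxycycline induces TDP-43-mNLS-Clover, a Clover-fluorescent TDP-43 whose nuclear localization signal is altered. Cultures of the aggregates group were transfected with 50 nM fibril seeds of recombinant TDP-43 LCD (low-complexity domain) and sorted for cells with Clover aggregates, while cultures of the diffuse group were mock transfected with storage buffer and sorted for diffuse Clover. All were collected at 48 h, and each group had 3 libraries from separate transfections. Both groups carry the transgene and received doxycycline, and fibrils, aggregation and sort gate coincide, so these cannot be told apart. The endogenous gene is still present in both groups.

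Alternative splicing arises where a donor (the start of an intron) can be joined to several acceptors (intron ends), or an acceptor to several donors. Alternative promoters and first exons, exons that are skipped or included, and rarely used cryptic sites all add introns to a cluster. TDP-43 is an RNA-binding protein that holds down many cryptic splice sites, preferring UG-rich RNA. Some exons of splicing-factor genes introduce premature stop codons and in that way set the level of the factor. A cluster's state is described here by 3 values. Percent use is an intron's count divided by its cluster's count in a library. The main intron is the one with most counts over all libraries. Shannon entropy, in bits, is 0 when 1 intron takes every read and grows as reads spread over more introns.

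The 6 coding exons below, which are skipped or included inside changed members, show the kind of sequence these clusters switch. They are among the exons with the largest inclusion change of the annotated cassettes of at most 300 bases whose groups do not overlap and which no GENCODE 29 transcript places in a UTR. They were chosen after their values were seen. Each is given 5′ to 3′ on the transcript strand (hg38, GENCODE 29), with the cassette exon in capitals and 20 bases of each neighbouring exon in lower case.
BBC3, 191 bases, chr19:47226564-47226754, minus strand: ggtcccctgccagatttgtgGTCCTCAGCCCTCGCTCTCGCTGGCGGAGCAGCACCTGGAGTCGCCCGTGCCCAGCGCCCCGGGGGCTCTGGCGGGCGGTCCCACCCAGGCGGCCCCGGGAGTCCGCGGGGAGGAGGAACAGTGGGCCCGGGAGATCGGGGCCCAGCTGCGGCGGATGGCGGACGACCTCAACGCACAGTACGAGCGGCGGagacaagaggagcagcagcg
FAM102A, 121 bases, chr9:127953805-127953925, minus strand: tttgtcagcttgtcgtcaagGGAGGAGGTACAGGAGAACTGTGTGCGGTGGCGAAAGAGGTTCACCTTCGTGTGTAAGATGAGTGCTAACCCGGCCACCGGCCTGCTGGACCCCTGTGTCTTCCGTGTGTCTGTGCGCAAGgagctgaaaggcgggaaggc
ABI1, 87 bases, chr10:26755655-26755741, minus strand: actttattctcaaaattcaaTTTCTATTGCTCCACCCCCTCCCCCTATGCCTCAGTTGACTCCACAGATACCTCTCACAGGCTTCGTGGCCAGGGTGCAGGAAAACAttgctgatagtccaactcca
TEAD1, 12 bases, chr11:12878889-12878900, plus strand: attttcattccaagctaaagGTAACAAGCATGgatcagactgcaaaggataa
NFYA, 87 bases, chr6:41080811-41080897, plus strand: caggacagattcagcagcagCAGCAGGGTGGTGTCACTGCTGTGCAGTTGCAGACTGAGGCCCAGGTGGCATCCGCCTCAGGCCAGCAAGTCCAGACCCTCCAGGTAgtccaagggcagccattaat
TPD52L2, 60 bases, chr20:63875816-63875875, plus strand: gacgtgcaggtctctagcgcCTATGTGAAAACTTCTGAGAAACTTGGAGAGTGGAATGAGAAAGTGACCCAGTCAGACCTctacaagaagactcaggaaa
The letters TGTGTG were searched on the transcript strand of each capital stretch and were found 1 time, in the FAM102A exon. Of 1508 annotated internal exons of 121 bases, 4.51% hold them. No match says only that these letters are not in the stretch.

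Gene counts were 40279084 to 46863013 per library and intron counts 25341453 to 32020553, of which 3908094 to 4864584 fell in the complex clusters. TARDBP, which encodes TDP-43, stood at 2534, 2590 and 2617 CPM (library-scaled counts, TMM) for the aggregate replicates and at 7368, 7267 and 7685 CPM for the diffuse replicates. This count joins the endogenous gene and the transgene. All 8 osteosarcoma and mesenchymal markers were expressed, at a summed 5721 to 6175 CPM in aggregate and 8480 to 8868 CPM in diffuse libraries. Summed levels were 318 to 322 against 675 to 737 CPM for 4 epithelial markers, 38.6 to 42.0 against 33.0 to 34.7 CPM for 5 neuronal markers, 12.5 to 15.7 against 2.69 to 3.43 CPM for 4 blood markers and 0.127 to 0.324 against 0.214 to 0.401 CPM for 2 endothelial markers. Within some lists the markers went opposite ways by edgeR. Of the osteosarcoma and mesenchymal ones, RUNX2 and CD44 were higher and VIM, FN1, COL1A1, COL1A2 and THY1 lower in aggregate cells. SPARC did not pass that test. Of the neuronal ones, RBFOX3 and ELAVL4 were higher and STMN2 and SNAP25 lower. Of the blood ones, CD68 was higher (log2 fold change 2.40) and CD4 lower (-0.79). ELAVL3, PTPRC, CD3E and CDH5 did not pass the count filter, and the part of these levels in the splicing values was not tested.

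A typical member had 12 introns (median, range 10 to 180) over 22648 bases (448 to 194427), with a median of 6 donors and 6 acceptors. The count in its lowest library had a median of 761. Members lay in 1774 genes, some of which held more than 1, while 48 members could not be placed in a gene. Protein-coding genes held 1673 members and other annotated genes 207. In 157 members some splice sites belong only to another gene, so their gene name is uncertain.

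GENCODE 29 held 52.3% of the members' introns, against 66.4% in clusters of 2 to 9 introns. Annotated introns took a median of 97.2% of a member's counts. The main intron took a median of 32.8% of counts in diffuse and 33.5% in aggregate cells, and entropy had a median of 2.36 and 2.31 bits. The main intron took over 75% of counts in 64 members in diffuse cells and under 25% in 391. The lowest entropy in diffuse cells belonged to SEM1 (a proteasome component), CFL1 (cofilin, which severs actin filaments) and TIMM23 (a mitochondrial import channel), whose main introns took 97.2%, 96.9% and 96.4% of counts there. The SEM1 cluster changed (adjusted p = 0.00746, edgeR diffSpliceDGE), but not without aggregate library 2 (0.110) or diffuse library 3 (0.142).

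Splicing changed in 327 of the 1928 complex clusters (17.0%), in 319 genes, by edgeR diffSpliceDGE with Benjamini-Hochberg adjustment over all 35898 tested clusters. Among all tested clusters 5.02% changed, and among the 32092 clusters of 2 to 9 introns with the same depth minimum 4.54% changed. Members were also deeper, and the share that changed rose with both intron number and depth. It was 1.72% for 2 introns, 4.51% for 3 to 4, 9.06% for 5 to 9, 13.7% for 10 to 14, 20.5% for 15 to 19 and 30.4% for 20 or more. In clusters whose lowest library held over 2000 counts it was 2.68%, 11.6%, 18.4% and 31.4% for 2, 3 to 4, 5 to 9 and 10 or more introns. With 20 to 100 counts it was 1.11%, 2.16%, 3.16% and 3.55%. Just inside the rule, 48 of the 440 clusters of 10 introns changed (10.9%), and just outside it 74 of the 566 clusters of 9 introns (13.1%).

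**Figure D1:**
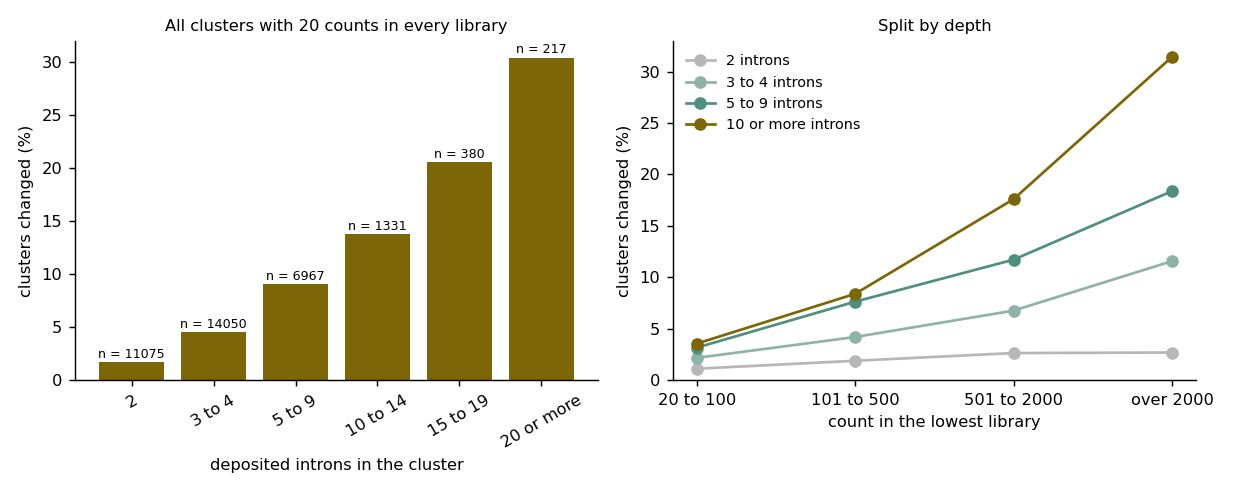
Percent of clusters that changed (edgeR diffSpliceDGE, adjusted p under 0.05) by number of deposited introns (left, bars, with the number of clusters) and by the count in the lowest library (right, points joined by lines for each intron class). The share rises from 1.72% at 2 introns to 30.4% at 20 or more, and at over 2000 counts it is 31.4% for clusters of 10 or more introns.

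Most changes were small. The largest difference in percent use of any intron between group means, called the shift below, had a median of 2.74 points in all members and 3.37 points in the changed ones. It reached 5 points in 108 changed members, 10 points in 43 and 20 points in 13, and stayed under 2 points in 98. The 43 are out of 1928 members. Of all 34020 clusters with 20 counts per library, 482 (1.42%) changed with a shift of 10 points or more. At the most shifted intron the groups did not overlap in 993 members (51.5%), where 27.4% of all clusters with 20 counts per library showed this. That intron is picked from 10 or more in members and from fewer in most other clusters, and members are deeper. The part of intron number and depth in these shares was not tested. In 266 members the most used intron differed between the group means, and 55 of these members changed.

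Among the 43 changed members with a shift of 10 points or more, the most shifted intron was higher in aggregate cells in 21 and lower in 22. It was absent from the annotation in 8, of which 4 were higher and 4 lower. The introns that gained and lost most shared an acceptor in 15 (34.9%), a donor in 9 (20.9%) and neither in 19 (44.2%). Over all 1928 members these shares were 17.7%, 15.4% and 66.9%, and over the 327 changed ones 26.0%, 21.7% and 52.3%. In 6 of the 43, and in 21 of all 327 changed members, these introns start at different donors, each listed by GENCODE 29 only for first exons. Those 6 lay in GULP1, TMBIM6, HOXC10, NCOA7, RNH1 and UBA1. First-exon donors were counted in changed members only, so no share over all members is given. In the HOXC10 cluster 20 intron ends belong only to other genes, so its gene name is uncertain.

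FRMD6, a FERM-domain protein linked to Hippo signalling, had the largest shift of all (chromosome 14, 51570411 to 51689734, plus strand, 30 introns). Its intron 51570411 to 51578971 took 60.4%, 57.8% and 55.4% of the cluster in aggregate replicates 1 to 3, against 16.7%, 20.9% and 16.3% in diffuse replicates 1 to 3. The intron 51651997 to 51689690, which starts at a first-exon donor, took 3.93%, 4.24% and 6.06% against 39.0%, 38.9% and 42.3%. The groups lie far apart for both, in opposite directions. The cluster changed with an adjusted p of 2.18e-63 (edgeR diffSpliceDGE), and its entropy was lower in aggregate cells by 0.44 bits (SE 0.05, limma, adjusted p = 0.00335). FRMD6 itself rose from 350 ± 7.51 to 454 ± 14.3 CPM (SD, n = 3; log2 fold change 0.37, edgeR, adjusted p = 2.03e-16).

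TMBIM6 encodes an endoplasmic reticulum membrane protein also called Bax inhibitor 1 (chromosome 12, 49739083 to 49752463, plus strand, 17 introns). The main intron, from 49741612 to 49752463, fell to 63.5%, 62.4% and 65.6% in aggregate libraries, from 88.1%, 88.1% and 88.3% in diffuse libraries. The intron from the upstream first-exon donor, 49739083, to the same acceptor rose to 23.0%, 24.2% and 22.3%, from 2.60%, 2.48% and 1.34%. Both are annotated, and no aggregate library overlapped a diffuse one. The cluster's adjusted p was 1.38e-44 (edgeR diffSpliceDGE), and its entropy rose by 0.76 bits (SE 0.02, limma, adjusted p = 1.25e-05).

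GULP1, an adaptor for engulfment of dying cells, showed the same form (chromosome 2, 188292167 to 188383791, plus strand, 11 introns). The intron from donor 188293113 to acceptor 188383762 took 41.4%, 42.6% and 33.2% in aggregate against 9.52%, 16.7% and 13.8% in diffuse libraries. The one from donor 188292167 to that acceptor took 30.1%, 25.8% and 28.4% against 61.9%, 45.2% and 65.5%. Its gene rose from 7.65 to 79.0 CPM (log2 fold change 3.37), so the diffuse libraries held only 29 to 42 cluster counts and the aggregate ones 401 to 442. The cluster's adjusted p of 0.0161 (edgeR diffSpliceDGE) ended above 0.05 without aggregate library 1 (0.0564) or 2 (0.0798), or without diffuse library 1 (0.154) or 3 (0.0787).

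NR4A1 encodes an orphan nuclear receptor induced early by many stimuli (chromosome 12, 52041930 to 52054326, plus strand, 12 introns). The main intron 52051569 to 52054326, from a first-exon donor, took 7.69%, 9.16% and 5.61% in aggregate and 37.4%, 35.4% and 32.5% in diffuse libraries. The long intron from 52041930 to the same acceptor took 39.6%, 36.7% and 39.7% against 18.2%, 12.0% and 14.5%. Use thus moved from the nearer to the more distant donor without overlap of the groups (cluster adjusted p = 1.43e-12, edgeR diffSpliceDGE). NR4A1 fell by 1.59 on the log2 scale, from 93.9 to 31.0 CPM. In a bulk sample, fewer expressing cells and less RNA per cell cannot be told apart.

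ITGB1, the integrin beta 1 subunit that links cells to matrix, held 18 introns on chromosome 10 (32935559 to 32958144, minus strand). The main intron spans the whole cluster and took 92.1%, 93.5% and 92.6% in aggregate and 83.0%, 81.2% and 84.2% in diffuse libraries. The intron from another first-exon donor, 32957758, took 1.35%, 1.25% and 1.48% against 6.80%, 4.14% and 4.55%. The groups did not overlap in either. ITGB1 had one of the 3 largest falls of entropy, by 0.61 bits (SE 0.04, limma, adjusted p = 0.00055), and its gene rose by 0.69 on the log2 scale.

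TRIO held 11 introns on chromosome 5 (14487731 to 14492566, plus strand). The main intron 14488261 to 14492566 fell to 50.1%, 43.9% and 42.9% in aggregate libraries, from 82.0%, 77.8% and 81.3% in diffuse libraries. From the same donor, an unannotated acceptor after base 14489029 rose to 20.2%, 25.7% and 23.2%, from 6.58%, 5.76% and 6.13%. The annotated intron 14489070 to 14492566, which leaves a 40-base stretch behind that acceptor, took 11%, 11.8% and 14.1% against 2.32%, 4.11% and 1.98%. All 3 separate the groups. TRIO had the largest gain of entropy among members that passed (0.93 bits, SE 0.04, limma, adjusted p = 0.000111), while the gene's level differed little (log2 fold change -0.13).

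SYTL3, a synaptotagmin-like protein of vesicle traffic, switched towards an unannotated donor (chromosome 6, 158708392 to 158725505, plus strand, 10 introns). The intron from donor 158720857 to 158725502 took 38.6%, 45.8% and 40.7% in aggregate against 10.7%, 10.6% and 10.8% in diffuse libraries. The annotated intron 158718212 to 158725502 took 16.3%, 22.7% and 19.1% against 30.3%, 28.5% and 35.0%. The entropy difference of -0.03 bits (SE 0.06) in this cluster did not pass (limma, adjusted p = 0.839).

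SNHG17, a long non-coding RNA that hosts a small nucleolar RNA, skipped exons (chromosome 20, 38421099 to 38426418, minus strand, 13 introns). The intron across the whole cluster took 30.2%, 26.9% and 29.2% in aggregate against 2.17%, 0.875% and 1.38% in diffuse libraries (cluster adjusted p = 4.76e-22, edgeR diffSpliceDGE). Inclusion of the annotated 150-base exon 38422092 to 38422241 was 34.9 ± 4.12% against 95 ± 1.85% (SD, n = 3). Inclusion averages the counts of the 2 introns beside an exon and divides by that average with the skipping intron added. Entropy rose by 0.40 bits (SE 0.07, limma, adjusted p = 0.0183).

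The remaining clusters among the 10 with the largest shift lay in ABLIM1, MUC15 and FAM114A2. All 10 were chosen among changed members whose groups do not overlap at the most shifted intron. In ABLIM1, an actin-binding LIM-domain protein, the annotated intron 114601962 to 114684289 took 26.5 ± 1.22% in aggregate and 53.4 ± 2.13% in diffuse cells (SD, n = 3). An unannotated intron from the same acceptor, 114601962 to 114631901, took 63.3 ± 2.45% against 39.8 ± 1.74%. In MUC15, a membrane mucin, the intron 26591960 to 26597118, unannotated at both ends, took 53.4 ± 2.45% against 29.9 ± 1.72%. FAM114A2 lost use of the first-exon intron 154034968 to 154038856, at 14.8 ± 7.05% against 42.0 ± 8.39%. Its unannotated intron 154034968 to 154037437 took 9.64 ± 0.70% and had no count in diffuse cells, where 263 cluster counts allow a share of up to 1.14%. That cluster's adjusted p of 0.000516 (edgeR diffSpliceDGE) became 0.0513 when introns needed 50 counts.

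**Figure D2:**
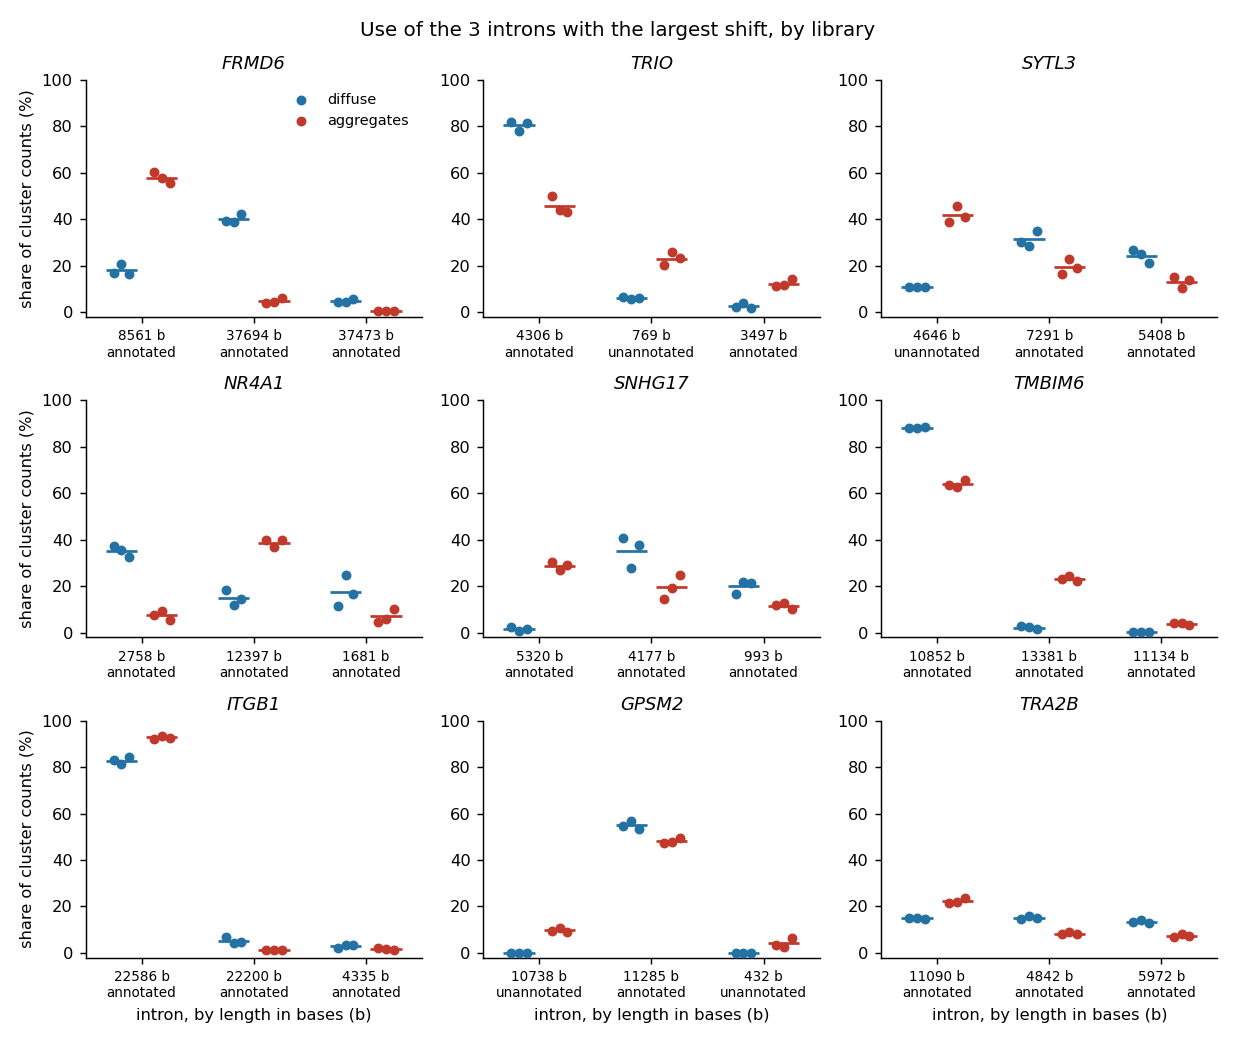
Percent of cluster counts taken by the 3 introns with the largest shift in 9 complex clusters, for each diffuse (blue) and aggregate (red) library, with horizontal lines at the group means. Introns are labelled by length in bases and by whether GENCODE 29 lists them. In FRMD6 the left intron reads 55.4% to 60.4% in aggregate and 16.3% to 20.9% in diffuse libraries.

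The main intron's share rose in 31 members (1.61%) and fell in 18 (0.934%) by limma, where 0.653% of all 34020 clusters tested rose and 0.426% fell. The median difference was 0.22 points in members and 0.24 points over all. FRMD6, SYTL3 and GULP1 had the largest rises, of 39.94, 30.98 and 25.72 points, and TRIO, NR4A1 and TMBIM6 the largest falls, of -34.72, -27.59 and -24.33 points. The rises depend on the choice of main intron. In FRMD6, SYTL3 and GULP1 another intron named above took more of the diffuse counts than the main one. The share of that other intron was lower in aggregate cells. Without any single library 8 to 13 members rose and 5 to 10 fell, and on the log-odds scale 16 rose and 9 fell. With the main intron taken from diffuse libraries alone, 24 rose and 27 fell, so the balance of rises over falls turned.

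Entropy fell in 228 members (11.8%) and rose in 60 (3.11%), by limma after each cluster was thinned to the same count in every library. Over all clusters 3.21% fell and 1.13% rose. The share with a fall grew with intron number, from 0.614% at 2 introns to 6.07% at 5 to 9. It also grew with depth. Among members it was 0% with 20 to 100 counts in the lowest library and 21.9% with over 2000. In clusters of 5 to 9 introns with over 2000 counts it was 10.7%. The part of intron number and depth in the entropy calls was not tested. The median of all members' differences was -0.04 bits, against -0.02 bits over all clusters, and 69.8% of members were lower in aggregate cells, against 63.4% of all clusters. The median over members was 2.31 bits in each of the aggregate libraries and 2.35 to 2.36 bits in the diffuse ones, with no overlap. Of the 288 members called for entropy, 165 (57.3%) also changed in the splicing test, which is 50.5% of the 327 changed members. Thinning every cluster to 20 counts left 31 falls and 13 rises. Leaving out aggregate library 2 or 3 left 148 and 142 falls, and leaving out diffuse library 1 or 3 left 37 and 33 rises.

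The largest falls of entropy were those of TRIM16 (an E3 ubiquitin ligase), LINC01606 and ITGB1. TRIM16 went from 1.31, 1.79 and 1.99 bits in diffuse libraries to 0.96, 0.70 and 0.81 bits in aggregate ones, a difference of -0.88 (SE 0.16, adjusted p = 0.0248). Its gene rose by 1.51 on the log2 scale, and its splicing test did not pass (adjusted p = 0.269, edgeR diffSpliceDGE). LINC01606 went from 4.23, 4.21 and 3.99 to 3.48, 3.52 and 3.59 bits. Gains were largest in TRIO, FAM114A2 (0.79 bits, SE 0.10) and TMBIM6. TFDP1, a partner of E2F cell-cycle factors whose cluster of 58 introns also reaches splice sites of other genes, went from 4.09, 4.04 and 4.12 to 3.74, 3.78 and 3.74 bits, with 12 introns called.

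**Figure D3:**
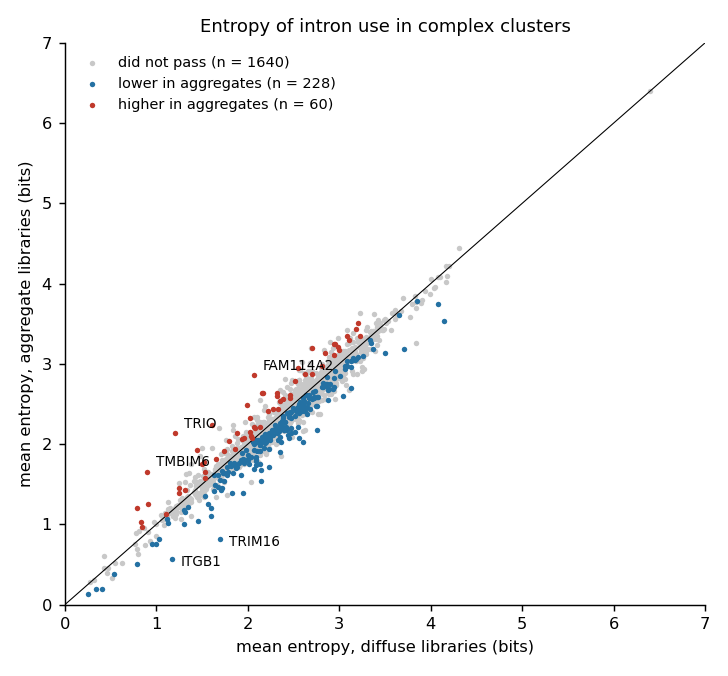
Mean entropy of intron use (bits) in diffuse libraries (x axis) and aggregate libraries (y axis), 1 point for each of the 1928 complex clusters, with the line of equality. Blue points (228) are lower and red points (60) higher in aggregate cells by limma, and grey points (1640) did not pass.

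Rare and unannotated introns took a smaller share of counts in aggregate libraries. Unannotated introns took 3.20%, 3.24% and 3.07% of member counts in the aggregate replicates, against 3.65%, 3.79% and 3.70% in the diffuse ones. Introns whose percent use averaged under 1% over the 6 libraries, 12852 in number, took 1.77%, 1.76% and 1.72% against 2.12%, 2.19% and 2.15%. No aggregate library reached the lowest diffuse one for either. In clusters of 2 to 9 introns the unannotated share was 0.983 ± 0.0143% against 1.24 ± 0.0311% (SD, n = 3). An exact permutation test of 3 libraries against 3 cannot go below a two-sided p of 0.10, so none is given.

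**Figure D4:**
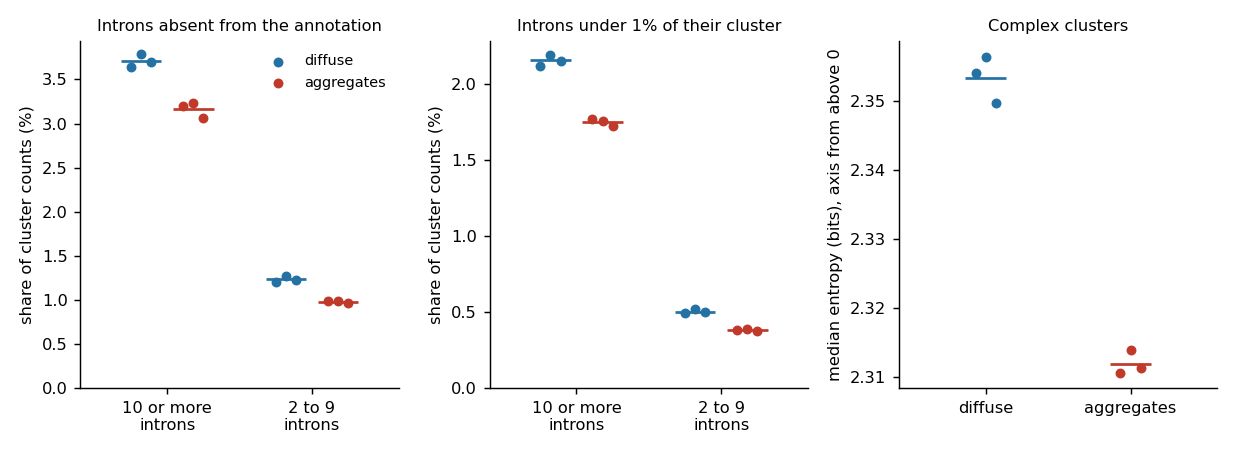
Share of cluster counts (%) on introns absent from GENCODE 29 (left) and on introns under 1% of their cluster (middle) for clusters of 10 or more and of 2 to 9 introns, and median entropy of the complex clusters (right, bits, axis not from 0). Points are libraries, blue for diffuse and red for aggregates, and lines are group means; the aggregate points lie below the diffuse points in each panel.

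At the level of single introns, 839 introns of complex clusters passed the test relative to their cluster (edgeR diffSpliceDGE). Of these, 262 were relatively higher and 577 relatively lower in aggregate cells, where 0.614% of all tested introns were higher and 1.44% lower. The higher ones took a median of 4.07% of their cluster's counts and the lower ones 1.42%. Annotated introns made up 181 of the higher and 375 of the lower ones, and unannotated introns 81 and 202. The shift was under 1 point for 49 of the higher and 234 of the lower introns.

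In 23 changed members, a pair of called introns that moved the same way with annotated outer sites bounded a stretch of 10 to 500 bases, of which at least 1 inner splice site is absent from the annotation. There were 13 such stretches that were used more in aggregate cells, in 11 clusters, and 14 used less, in 12. Stretches were looked for in changed members only, so no share over all members or smaller clusters is given. GPSM2, which orients the mitotic spindle and is a known site of TDP-43-repressed cryptic splicing, held one of 115 bases (chromosome 1, 108896317 to 108896431). The unannotated intron leading into it took 9.52%, 10.8% and 9.12% of cluster counts in aggregate libraries and none in the 3 diffuse libraries, where 3404 cluster counts allow a share of up to 0.0881%. This limit covers counting error only. The GPSM2 cluster (17 introns, 108877229 to 108896863) changed with an adjusted p of 1.71e-23 (edgeR diffSpliceDGE), its entropy rose by 0.30 bits (SE 0.05, limma, adjusted p = 0.017), and the gene fell by 0.95 on the log2 scale.

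Other stretches used more in aggregate cells lay in TRIO, FAM114A2, LRP8 (178 bases), ZNF195 (89), RNF115 (191), USP10 (118), MGAT5B (140), RAB5IF (132), FRMD6 (98) and the non-coding MIR4435-2HG (181 and 222). In ZNF195, a zinc-finger gene, the mean use of the flanking introns was 4.50%, 4.82% and 6.99% against 0.630%, 0.248% and 0.380%. The stretches used less lay in ITGB1, PPA1, IL18, TFDP1, HNRNPC, DHRS2, ANKRD11, LINC00662, NME7, PSMD14, SNX8 and KCTD9. In LINC00662, a stretch of 155 bases took 1.59%, 2.37% and 1.36% against 9.52%, 9.53% and 8.37%. In SNX8, a sorting nexin, one of 117 bases took 1.45%, 1.84% and 1.18% against 5.76%, 7.08% and 5.40%.

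Annotated cassette exons were measured where the exon, both flanking introns and the skipping intron are annotated and at least 20 reads bore on them in every library. Complex clusters held 3267 of them, in 1331 clusters. Inclusion was higher by 10 points or more without overlap of the groups in 117 and lower in 49, while of the 12922 such exons over all clusters 3.81% were higher and 1.73% lower. The 166 together are 5.08% of the members' cassette exons, against 5.69% in clusters of 2 to 9 introns. Exon lengths were a multiple of 3 for 37.3% of the members' cassette exons and 46.1% of those in smaller clusters.

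The exons whose sequences are printed above show both directions. They were chosen among exons whose groups do not overlap, so the lack of overlap follows from the choice. BBC3 encodes PUMA, a pro-apoptotic BCL2-family protein. Inclusion of its 191-base exon was 60.5%, 49.8% and 50.7% in aggregate and 94.4%, 96.0% and 96.0% in diffuse libraries. The 12-base exon of TEAD1, a transcription factor of the Hippo pathway, was included at 54.8%, 50.1% and 52.7% against 72.4%, 74.9% and 76.1%. For the 87-base exon of NFYA, a subunit of the CCAAT-box factor NF-Y, the values were 66.6%, 70.3% and 65.5% against 91.6%, 88.9% and 87.4%. These 3 were lower in aggregate cells.

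The other three were higher. ABI1 is an adaptor of the WAVE complex, which drives actin branching, and its 87-base exon was included at 85.1%, 81.4% and 79.7% in aggregate and 61.3%, 57.3% and 60.1% in diffuse libraries. The FAM102A exon stood at 97.6 ± 2.12% against 71.9 ± 8.35% (SD, n = 3). TPD52L2, of the tumor protein D52 family, had its 60-base exon at 70.5%, 71.0% and 75.1% against 51.9%, 54.3% and 53.2%. Their clusters changed with adjusted p of 8.97e-12 for ABI1, 1.26e-09 for FAM102A, 3.07e-09 for TPD52L2, 7.14e-15 for BBC3, 2.39e-09 for NFYA and 1.58e-05 for TEAD1 (edgeR diffSpliceDGE).

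**Figure D5:**
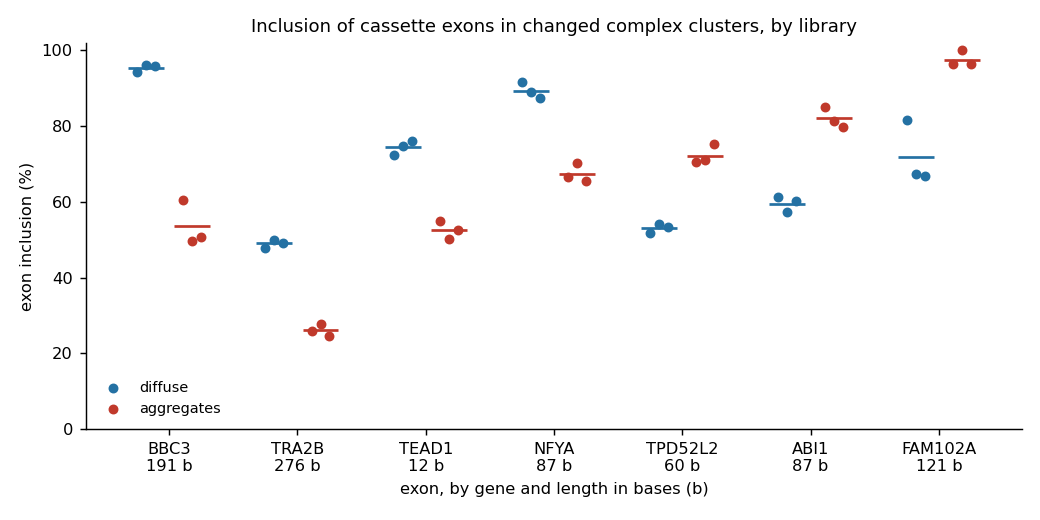
Inclusion (%) of the 6 coding exons whose sequences are printed and of the 276-base TRA2B exon, for each diffuse (blue) and aggregate (red) library, with lines at the group means. TRA2B reads 24.6% to 27.8% in aggregate and 48.0% to 49.9% in diffuse libraries.

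Genes of RNA-binding and splicing factors held 19 complex clusters in 17 of 75 listed genes, of which 9 clusters changed (47.4%), beside 17.0% of all members and 5.02% of all tested clusters. These clusters were deep, with a median lowest count of 2939 against 761 for members. Of members with over 2000 counts in their lowest library, 31.4% changed. Entropy fell in 5 of the 19 and the rest did not pass, beside falls in 11.8% of all members and 21.9% of members with over 2000 counts in their lowest library. Their shifts were small, with a median of 2.16 points.

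TRA2B, a splicing activator, carries an exon known to introduce premature stop codons, of 276 bases (chromosome 3, 185931577 to 185931852, minus strand). Its inclusion was 26.0%, 27.8% and 24.6% in aggregate and 48.0%, 49.9% and 49.3% in diffuse libraries. The skipping intron 185926735 to 185937824 took 22.4 ± 1.22% of cluster counts against 14.9 ± 0.429% (SD, n = 3). Groups did not overlap in either, its cluster had an adjusted p of 1.65e-10 (edgeR diffSpliceDGE), and TRA2B fell by 0.45 on the log2 scale.

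In HNRNPH3, a member of the hnRNP H family, the skipping intron 68337334 to 68338502 took 3.23%, 3.72% and 3.41% in aggregate and 6.65%, 7.53% and 7.26% in diffuse libraries (cluster adjusted p = 1.27e-14, edgeR diffSpliceDGE). MATR3, a nuclear-matrix RNA-binding protein, lost use of the intron 139293806 to 139314674, at 0.767 ± 0.388% against 3.47 ± 0.544% (SD, n = 3). TAF15, a FET-family RNA-binding protein, gained use of an unannotated donor at 35824100, at 6.09 ± 0.267% against 3.93 ± 0.243%. The most shifted introns of RBM39 and HNRNPD differed by 1.76 and -2.92 points, and the HNRNPD call was lost without diffuse library 2 (adjusted p = 0.0574). HNRNPC, HNRNPH1 and HNRNPR also changed, with differences of 1.66, -1.70 and 1.08 points at the most shifted intron. A second cluster in HNRNPH1 and one in RBM39 did not pass.

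Known TDP-43 splicing targets held 6 members in 5 of 46 listed genes, of which those in GPSM2 and TRA2B changed, beside 17.0% of all members and 5.02% of all tested clusters. ADARB1, MAP4K4, BCL2L11 and a second GPSM2 cluster did not pass. Hosts of small nucleolar RNAs and long non-coding RNAs held 9 members in 8 of 31 genes, and those of SNHG17 and ZFAS1 changed (22.2% of the 9). Inclusion of a 62-base exon in ZFAS1 was 77.1%, 76.0% and 76.2% against 67.9%, 67.9% and 67.6%. Genes of the actin cytoskeleton and adhesion held 21 members in 18 of 58 genes, and 6 clusters in ABI1, ITGB1, PLEC, PDLIM7 and MAP4 changed (28.6%, beside 17.0% of all members). Their median lowest library count was 1280, against 761 for members. Entropy fell in 2 of the 21, beside 11.8% of all members.

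A cluster with 180 introns lies within 699 bases of SEC14L1 on chromosome 17 (77215715 to 77216413, plus strand), matches no annotated intron and did not change (adjusted p = 0.57, edgeR diffSpliceDGE). Its entropy of 6.39 bits in both groups was the highest of all members, followed in diffuse cells by 2 clusters in the non-coding PVT1 with 4.31 and 4.20 bits, which did not change either. POLR2J3 (78 introns), DUXAP10 (65), DUXAP9 (61) and TFDP1 (58) did change, with shifts of 2.77 to 3.41 points at their most shifted called introns. DUXAP9 and DUXAP10 are near-identical pseudogene copies, and POLR2J3 has near copies too, so reads may be split between loci.

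PPIA, the abundant prolyl isomerase cyclophilin A, held 420546 cluster counts, and its cluster changed (adjusted p = 1.26e-08, edgeR diffSpliceDGE) with a largest shift of 0.923 points. The intron behind the call, 44798905 to 44799246, took 0.278%, 0.287% and 0.308% in aggregate against 0.50%, 0.524% and 0.511% in diffuse libraries. RPS2, a ribosomal protein gene with 692001 counts, and ACTB, with 445960, did not pass, with largest shifts of 1.5 and -2.46 points.

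No annotated intron was found in 57 members, of which 5 changed, beside 17.0% of all members and 5.02% of all tested clusters. Of these 57, 13 span under 2000 bases, and in 5 of the 13 every intron length is a multiple of the shortest. In HELZ2 all 24 introns within 714 bases have lengths that are multiples of 51. In AHNAK2, which encodes a giant protein with internal repeats, 14 of 14 introns of one longer cluster and 19 of 21 of another have lengths that are multiples of 495. Whether these gaps are spliced introns was not tested.

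Most genes holding complex clusters also changed in level, as did 75.4% of all tested genes. Of 1664 hosts tested by edgeR's quasi-likelihood test, 666 rose and 767 fell, where 37.8% and 37.6% of all 17839 tested genes did. The median log2 fold change was -0.05 over these hosts and 0.01 over all genes. It was 0.10 for hosts of members whose entropy fell, -0.26 where entropy rose and -0.07 where it did not pass. The part of host level in the entropy values was not tested.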

How the data were processed

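RNA-seq was measured in 6 libraries. Per the submitters' processing notes, reads were trimmed with fastp 0.23.2 and aligned to hg38 with STAR 2.7.11a. The authors deposited raw counts per gene and, from LeafCutter, raw counts per intron with cluster names. The LeafCutter version, gene counter and strand setting were not given in the sources used here. Every deposited intron has at least 10 counts over the 6 libraries.

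Introns were matched to GENCODE 29 by exact position. Intron counts were fitted with edgeR 4.0.16 (TMM, quasi-likelihood) and tested relative to their cluster with diffSpliceDGE; a cluster changed where its Simes p, Benjamini-Hochberg adjusted over 35898 clusters, was under 0.05. Main-intron share and entropy (thinned to the cluster's lowest library count, mean of 20 draws) were tested with limma 3.58.1 over 34020 clusters, and genes with edgeR; R was 4.3.3. Limits for 0 counts used 3 counts. The fitting script was tested on simulated data. Alternatives were scaling, intron filters, other tests (including DESeq2 1.42.0 for genes), a replicate block and leaving out libraries.

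Clusters named are the 10 with the largest shift among changed members whose groups do not overlap, the 5 with most introns, the 3 with most counts, the 3 largest rises and falls of main share and of entropy, the 3 lowest and highest entropies, and up to 6 changed members each of the TDP-43 target and RNA-binding lists. Exons (sequences of those on chromosome 8 left out), stretches and other genes were chosen after their values were seen. The members and lists were chosen with earlier results of these data known. The replicates are separate transfections of 1 line.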

Additional observations from a re-analysis of the deposited data

How the results depend on the processing

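Of 327 changed complex clusters, 284 were shared with the 289 changed under a replicate block. With RLE scaling 325 changed and with no intron minimum 327, all of them shared. With 50 counts per intron 364 changed, of which 293 were shared. The cluster F test gave 482, of which 296 were shared, and limma voom 330, of which 279 were shared. Leaving out 1 library gave 228 to 256, of which 217 to 240 were shared. Main-share calls (31 higher, 18 lower) depended on the setting: 16 and 9 on the log-odds scale, 24 and 27 with the main intron taken from diffuse libraries, 8 to 13 and 5 to 10 without a library. With the replicate block limma called 0 higher and 0 lower, with 238 and 153 at an unadjusted p under 0.05 and a lowest adjusted p of 0.0507. Entropy calls (60 higher, 228 lower) were 59 and 225 without thinning, 57 and 211 with the replicate block, 13 and 31 thinned to 20 counts, and 33 to 48 and 142 to 175 without a library. Fewer counts per cluster remain under the thinning to 20. Host genes (666 higher, 767 lower) were 638 and 748 with DESeq2, 669 and 774 with the block, and 631 to 661 and 744 to 778 without a library. Deviations of same-numbered libraries from their group means correlated at -0.02 to 0.03 over introns. They correlated at 0.02 to 0.04 over members' main shares and at 0.04 to 0.08 over genes. These values are low, so the numbers were not used to pair the samples. In the splicing test no named cluster changed direction under its alternatives, and 8 results lost and 3 gained the call. The main-share and entropy tests are not in that tally. The direction of the main share in FRMD6, SYTL3 and GULP1 depends on which intron is taken as main. Of members with 20 to 100 counts in their lowest library 3.55% changed, and of those with over 2000 counts 31.4%; the part of depth in this was not tested.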
